A study of Mus musculus with 20 samples.

Results

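Desmosomes are the spot-like junctions that hold keratinocytes together. Their transmembrane cadherins, the desmogleins and desmocollins, bind those of the neighbouring cell. Inside the cell, plakoglobin and the plakophilins link the cadherin tails to desmoplakin, which anchors the keratin filaments. In mouse epidermis, isoforms such as Dsg3 and Dsc3 are known from the lower layers and Dsg1 and Dsc1 from the upper layers, while Dsg2 and Dsc2 are best known from simple epithelia and heart. The 10 desmosomal genes described here were taken by symbol from 19807 genes listed, and all 10 were found. They are 3 desmogleins (Dsg1a, Dsg2 and Dsg3), 3 desmocollins (Dsc1, Dsc2 and Dsc3), 2 plakophilins (Pkp1 and Pkp3), desmoplakin (Dsp) and plakoglobin (Jup, junction plakoglobin).

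RNA-seq was performed on epidermis and dermis that had been separated with EDTA, from 3 kinds of mouse skin of mixed strain. Shh wounds were small wounds of 4-5 week old K14-CreER; LSL-Shh mice, in which tamoxifen removes a stop cassette and basal epidermal cells then express Sonic hedgehog, a ligand that directs hair follicle formation. E14.5 skin was intact wild type skin of the embryonic day at which hair placodes form. WT wounds came from 4-5 week old control littermates, labelled wild type and given tamoxifen as well. Both kinds of wound were collected 2 days after scab detachment. Shh wounds and WT wounds gave 3 libraries for each tissue and E14.5 skin gave 4, 20 libraries in all. Wound libraries are named as in the labels, Tg with a number for Shh wounds and Con with a number for WT wounds. Intact skin of 4-5 week old mice was not analysed here, so age and wounding cannot be told apart between E14.5 skin and the wounds. A library may hold more than 1 wound or animal, and p-values measure the spread between these libraries.

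Promoters were looked up for Dsp, the most abundant of the 10 genes, its plaque partner Jup, and the plakophilins Pkp1 and Pkp3. Pkp1 and Pkp3 had no entry in the promoter set used, so only Dsp and Jup are shown. The transcripts of all these genes were lower in E14.5 than in wound epidermis. Each stretch is the 250 bases before the RefSeq start on build GRCm38.p6, read 5′ to 3′ on the strand of the gene, with capitals for the GC box GGGCGG or its reverse complement CCGCCC. Dsp is at chr13:38151044-38151293 on the plus strand and Jup at chr11:100397791-100398040 on the minus strand.
Dsp: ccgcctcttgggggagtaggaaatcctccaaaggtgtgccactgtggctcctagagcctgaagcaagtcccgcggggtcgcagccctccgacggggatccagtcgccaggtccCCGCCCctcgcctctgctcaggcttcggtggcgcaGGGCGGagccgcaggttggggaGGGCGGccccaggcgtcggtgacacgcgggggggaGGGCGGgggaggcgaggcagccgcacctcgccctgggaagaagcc
Jup: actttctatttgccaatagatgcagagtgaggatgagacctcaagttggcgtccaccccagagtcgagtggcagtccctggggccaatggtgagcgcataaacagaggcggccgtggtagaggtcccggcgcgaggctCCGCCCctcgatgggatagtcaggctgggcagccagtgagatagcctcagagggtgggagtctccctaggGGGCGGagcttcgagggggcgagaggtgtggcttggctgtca
The Dsp stretch holds 4 GC boxes and 72.4% G and C, and the Jup stretch holds 2 GC boxes and 62% G and C. Over 32851 promoters of the same length, 32.7% held a GC box on either strand and the median G and C content was 52.4%. Neither stretch held, on either strand, the TATA box TATAAA, which 12.4% of the promoters held. The AP-1 motif TGANTCA, in 6.75% of the promoters, was absent from both as well. So were the Grainyhead motif AACCGGTT, in 0.116%, and the motif GACCACCCA of GLI, the Hedgehog effector, in 0.225%. The matches did not overlap those of another motif. A match describes the letters only.

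Gene levels are given in CPM, the reads of a gene per 1000000 reads assigned to genes in that library. Depth was 7167771 to 10810590 reads in Shh wound epidermis, 15663677 to 16510330 in E14.5 epidermis and 2135041 to 7354990 in WT wound epidermis. In dermis it was 3920969 to 8002999 reads in Shh wounds, 16160420 to 18745431 in E14.5 skin and 1407498 to 3752046 in WT wounds. The libraries WT wound epidermis Con-9097 and Con-9229, WT wound dermis Con-9229 and Shh wound dermis Tg-9233 detected 11179 to 14178 genes, against 17055 to 19419 in the other 16. Shh itself was measured at 9.25, 7.35 and 10.7 CPM in Shh wound epidermis, against 0, 1.5 and 0 CPM in WT wound epidermis. By Shh, the epidermal libraries thus matched their genotype labels. Of its target genes there, Ptch1 did not overlap (90.9 to 119 against 22.0 to 61.4 CPM), but Gli1 did (35.1 to 43.4 against 2.34 to 36.0 CPM). In dermis Shh overlapped (1.25 to 5.61 against 0 to 3.58 CPM). Gli1 (29.7 to 34.9 against 5.68 to 17.9 CPM) and Ptch1 (85.5 to 105 against 18.5 to 42.9 CPM) did not overlap in dermis. The summed CPM of 6 fibroblast markers was 1135 to 3490 in Shh wound epidermis, 783 to 2338 in E14.5 epidermis and 647 to 3266 in WT wound epidermis. In dermis it was 230929 to 359235 in Shh wounds, 28167 to 30071 in E14.5 skin and 256002 to 303722 in WT wounds. Relative to dermis of the same kind, epidermis thus held more of these markers in E14.5 skin than in the wounds. The cause was not tested.

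All 6 cadherin genes lie in 1 cluster on chromosome 18, which spans 644 kb on build NCBIM37 (20119431 to 20763022). Dsc3, Dsc2 and Dsc1 follow each other on the minus strand, and Dsg1a, Dsg3 and Dsg2 follow on the plus strand. The genes for the plaque proteins are scattered. Pkp1 is on chromosome 1 (137767972 to 137815784, minus strand), Pkp3 on chromosome 7 (148264117 to 148276409, plus strand), Dsp on chromosome 13 (38243197 to 38290446, plus strand) and Jup on chromosome 11 (100230272 to 100259077, minus strand). Dsg1a belongs to a recent gene family. Of the 5637 windows of 50 bases, the length of a read, in its longest transcript, 35.0% also occur in Dsg1b, Dsg1c or a predicted gene beside them, so its level is uncertain. For the other 9 genes this share was between 0% and 0.357%.

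In epidermis, the 10 genes together made up 21117 to 28128 CPM in Shh wounds, 7838 to 9538 CPM in E14.5 skin and 25706 to 33578 CPM in WT wounds. The summed level in E14.5 epidermis was thus below that of every wound library. Dsp alone took 51.2% to 56.2% of that sum in Shh wounds, 44.6% to 45.8% in E14.5 skin and 58.2% to 65.1% in WT wounds. To compare genes with each other, CPM was divided by the length of all exons of a gene in kb. On this scale Dsp ranked first and Pkp1 second in each of the 3 kinds of epidermis, with 1427 ± 272 and 704 ± 120 CPM per kb in Shh wounds (SD, n = 3). In E14.5 skin they had 405 ± 37.9 and 201 ± 23.4 CPM per kb (SD, n = 4), and in WT wounds 1888 ± 358 and 646 ± 73.7 (SD, n = 3).

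Below this pair the order differed between wound and embryo. In both kinds of wound, Jup and Dsc1 came next. In E14.5 epidermis Dsc3, the desmocollin of the lower layers, came next at 184 ± 25.1 CPM per kb, and Jup followed at 184 ± 15.8. These neighbours did not differ beyond their spread. Their ranges of 156 to 215 (Dsc3) and 166 to 201 (Jup) also overlapped that of Pkp1 there, 173 to 225 CPM per kb. Dsc1 stood lower there at 70.2 ± 18.9 CPM per kb, next to Dsg1a at 64.8 ± 11.8, again within the spread. In the wounds Dsg1a, Dsc3 and Pkp3 held places 5 to 7 with ranges that overlapped, at means of 187 to 225 CPM per kb in Shh wounds and 212 to 237 CPM per kb in WT wounds. The lowest 3 places went to Dsg3, Dsg2 and Dsc2 in the wounds. In E14.5 skin they went to Dsc2, Dsg2 and Dsg3, at 35.4 ± 3.21, 15.3 ± 2.63 and 14 ± 1.41 CPM per kb.

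**Figure D1:**
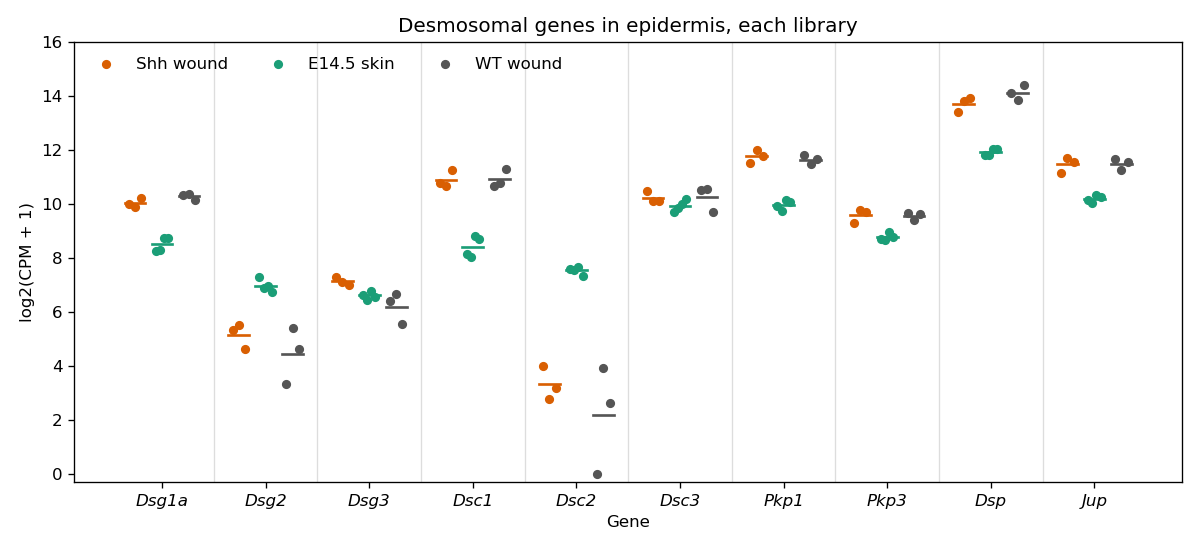
Level of the 10 desmosomal genes in epidermis as log2(CPM + 1); each point is a library and each bar the mean, for Shh wounds (n = 3), E14.5 skin (n = 4) and WT wounds (n = 3). Dsc2 and Dsg2 sat highest in E14.5 skin, while Dsg1a, Dsc1, Pkp1, Pkp3, Dsp and Jup sat lower there than in every wound library.

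E14.5 epidermis was compared with WT wound epidermis to see how embryonic skin that forms hair follicles differs from a wound that does not. Dsg2 and Dsc2 were higher in E14.5 epidermis, and Dsg1a, Dsc1, Pkp1, Pkp3, Dsp and Jup were lower, so 8 of the 10 genes passed the test at an adjusted p of 0.05. The difference was broad, as 59.1% of 19751 genes passed in either direction, 47.7% higher and 11.4% lower. Of the members 2 were higher and 6 lower, and their median log2 fold change was -1.04, against 0.66 over all genes tested. Dsg3 and Dsc3, the cadherins of the lower layers, did not pass. Fewer cells of a type and less RNA per cell cannot be told apart in such bulk samples.

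Dsc2 showed the largest difference of the 10 genes. It had 191, 190, 203 and 163 CPM in E14.5 epidermis, against 0, 14.1 and 5.15 CPM in WT wound epidermis. The groups did not overlap. By depth alone, the WT wound library without a read, Con-9097, allows up to 0.563 CPM (3 reads). It detected only 11179 genes at 5329678 reads, so this bound may be too low. The log2 fold change was 5.37 ± 0.78 (SE, adjusted p = 0.000636, limma). Dsg2 had 157, 118, 125 and 107 CPM in E14.5 epidermis, against 9.01, 41.9 and 23.9 CPM in WT wound epidermis. All 4 embryonic libraries were above the wound libraries, with a log2 fold change of 2.52 ± 0.43 (SE, adjusted p = 0.00152, limma). Both genes stayed higher past the threshold when each library was left out in turn, at log2 fold changes of 4.28 to 6.24 for Dsc2 and 1.95 to 3.0 for Dsg2.

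Among the cadherins of the upper layers, Dsc1 had 281, 264, 457 and 413 CPM in E14.5 epidermis, against 1656, 1749 and 2544 CPM in WT wound epidermis. It was lower by 2.50 ± 0.24 on the log2 scale (log2 fold change -2.50, SE, adjusted p = 8.2e-05, limma). Dsg1a had 306, 314, 429 and 424 CPM in E14.5 epidermis, against 1308, 1336 and 1151 CPM in WT wound epidermis. Its log2 fold change was -1.79 ± 0.15 (SE, adjusted p = 4.8e-05, limma), with no overlap between the groups. For its near-identical neighbour Dsg1b the values were 66.3, 72.2, 106 and 90.1 CPM in E14.5 epidermis and 320, 333 and 550 CPM in WT wound epidermis, which is also lower (log2 fold change -2.23, adjusted p = 0.000136).

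The cadherins of the lower layers were close between the groups. Dsc3 had 845, 939, 1035 and 1163 CPM in E14.5 epidermis, against 1492, 1499 and 845 CPM in WT wound epidermis. Of the WT wound libraries 2 lay above all the embryonic ones and Con-9229 lay level with the lowest, and the log2 fold change of -0.32 had a 95% confidence interval of -0.82 to 0.18 (adjusted p = 0.23, limma). Dsg3 had 99.3, 86.3, 110 and 94.6 CPM in E14.5 epidermis, against 83.3, 99.9 and 45.9 CPM in WT wound epidermis. Its log2 fold change was 0.41 with an interval of -0.16 to 0.99 (adjusted p = 0.185). Dsc3 passed as lower without WT wound library Con-9229 (log2 fold change -0.60, adjusted p = 0.00754).

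All 4 plaque genes were lower in E14.5 epidermis. Dsp, the keratin anchor, had 3605, 3587, 4252 and 4206 CPM there, against 17883, 14964 and 21860.5 CPM in WT wound epidermis, with a log2 fold change of -2.21 ± 0.16 (SE, adjusted p = 1.9e-05, limma). Pkp1, the main plakophilin of the upper epidermis, had 869 to 1132 CPM in E14.5 epidermis, against 2876 to 3616 CPM in WT wound epidermis (log2 fold change -1.68). Jup, which serves adherens junctions too, had 1067 to 1292 CPM in E14.5 epidermis, against 2450 to 3249 CPM in WT wound epidermis (log2 fold change -1.30). Pkp3, a plakophilin of all epidermal layers, differed least, with 404 to 504 CPM in E14.5 epidermis, against 677 to 820 CPM in WT wound epidermis (log2 fold change -0.79, adjusted p = 0.000682).

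CPM values of a library share 1 total, so that a change in abundant transcripts can shift the others. Over the genes that averaged 50 CPM or more, the median log2 fold change was 0.61 in this comparison and 0.08 with TMM scaling, which is designed to correct for such shifts. With TMM, the 8 calls held in the same direction. Dsc2 was then at 4.90 and Dsg2 at 2.00 on the log2 scale, and the 6 lower genes were at -1.33 (Pkp3) to -3.03 (Dsc1). Dsc3 passed as lower with TMM at -0.86 (adjusted p = 0.00769), and Dsg3 turned to -0.11 (adjusted p = 0.691). Without WT wound libraries Con-9097 and Con-9229 together, a choice made after seeing the data, Con-9098 is the only WT wound library left and is assumed to vary like the E14.5 libraries. The calls then numbered 9, with Dsc3 added.

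Markers of several cell types differed in this comparison too. The suprabasal keratinocyte markers were lower in E14.5 epidermis, 6 of 6, and their summed level was 7841 to 12476 CPM there, against 82984 to 105542 CPM in WT wound epidermis. The markers of periderm, the simple layer that covers embryonic epidermis, were higher, 4 of 4, with a summed level of 333 to 408 CPM in E14.5 epidermis, against 0 to 1.36 CPM in WT wound epidermis. Krt8 was at 0 in all 3 of these wound libraries. The skeletal muscle markers were higher too, 4 of 4, with summed levels of 127 to 471 CPM in E14.5 epidermis, against 0 to 0.937 CPM in WT wound epidermis, and Myh3 was at 0 in the wounds. The 6 basal keratinocyte markers summed to 5007 to 5896 CPM in E14.5 epidermis, against 2980 to 5492 CPM in WT wound epidermis, and 2 passed as higher and 1 as lower. Among the other lists, 3 of 6 fibroblast, 2 of 4 endothelial and 3 of 4 melanocyte markers passed as higher and 0 as lower. Of the immune markers 3 of 4 passed as lower, and of the hair shaft markers 1 of 4. The part of these cell types in the desmosomal differences was not tested.

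**Figure D2:**
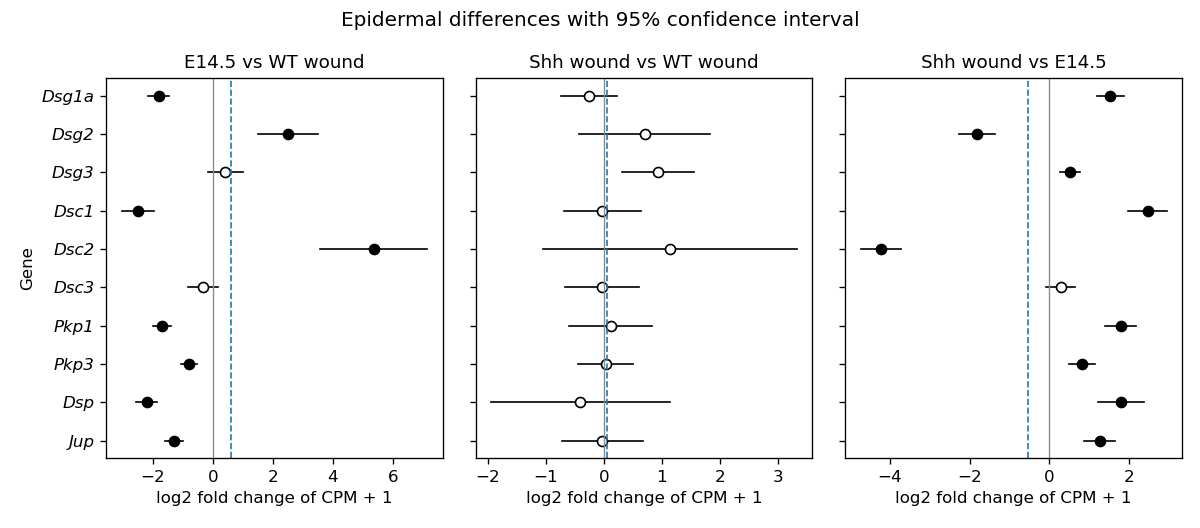
Log2 fold change of CPM + 1 for each desmosomal gene in 3 epidermal comparisons, with its 95% confidence interval; filled points passed an adjusted p of 0.05, and the dashed line is the median over genes that averaged 50 CPM or more (0.61, 0.05 and -0.52). Dsc2 and Dsg2 stand on the side of E14.5 skin in the outer panels, and none of the 10 genes passed between Shh wounds and WT wounds.

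Shh wound epidermis was compared with WT wound epidermis to ask whether desmosomal transcripts respond to epidermal Shh in a wound. None of the 10 genes passed the test, as was so for 0 of 19252 genes tested with limma, a background of 0%. Shh, Gli1 and Ptch1 did not pass either, 0 of 3, at a median log2 fold change of 1.96. The absence of a call in this comparison therefore does not show that a gene was unchanged. At an unadjusted p under 0.05 there were 1846 genes, of which 1 was a member. The edgeR quasi-likelihood test on recovered reads called 6 genes (0.0312%) and DESeq2 called 64 (0.469%), and neither called a member. The median log2 fold change of the members was 0.0028, against 0.21 over all genes tested.

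The member with the unadjusted p under 0.05 was Dsg3, which carries adhesion in basal keratinocytes. It had 157, 137 and 128 CPM in Shh wound epidermis, against 83.3, 99.9 and 45.9 CPM in WT wound epidermis. All 3 Shh wound libraries were above the 3 WT wound libraries, and Dsg3 was the only member without overlap, where 14.3% of all genes were higher without overlap. Its log2 fold change was 0.94 with a 95% confidence interval of 0.32 to 1.56 (adjusted p = 0.373, limma), and 0.61 to 1.17 when each library was left out in turn. The 6 basal keratinocyte markers summed to 5052 to 7553 CPM in Shh wound epidermis, against 2980 to 5492 CPM in WT wound epidermis. They did not move as 1 set. The means of Krt5, Krt14, Itga6 and Trp63 were higher in Shh wounds, Itgb4 was level at 296 CPM in both, and Krt15 was lower (196 against 440 CPM). None of these markers passed the test, and their part in the level of Dsg3 was not tested.

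The other members had intervals that included 0. The most abundant gene, Dsp, had 10817, 14713 and 15806 CPM in Shh wound epidermis, against 17883, 14964 and 21860.5 CPM in WT wound epidermis. Its log2 fold change was -0.41 with an interval of -1.95 to 1.13. For Dsg1a, Dsc1, Dsc3, Pkp1, Pkp3 and Jup the log2 fold changes lay between -0.25 and 0.12, with adjusted p of 0.689 to 0.98. Of these intervals the lowest bound was -0.73 (Dsg1a) and the highest 0.84 (Pkp1). Dsc2 had 15, 5.92 and 8.09 CPM in Shh wound epidermis, against 0, 14.1 and 5.15 CPM in WT wound epidermis. Dsg2 had 39.0, 45.4 and 23.9 CPM in Shh wound epidermis, against 9.01, 41.9 and 23.9 CPM in WT wound epidermis. Both overlapped, with intervals of -1.05 to 3.34 (Dsc2) and -0.43 to 1.84 (Dsg2). Against Con-9098 alone, the WT wound library with the highest level of both genes, their log2 fold changes turned to -0.60 and -0.26.

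Shh wound epidermis was compared with E14.5 epidermis to see how the wounds with epidermal Shh differ from embryonic skin. Dsg1a, Dsg3, Dsc1, Pkp1, Pkp3, Dsp and Jup were higher in Shh wounds and Dsg2 and Dsc2 were lower. Of the 10 genes 7 thus passed as higher and 2 as lower, against a background of 71.3% of 19775 genes, 19.6% higher and 51.7% lower. These libraries of E14.5 skin also serve in the comparison with WT wounds, so both sets of differences share them. The median log2 fold change of the members was 1.05, against -0.45 over all genes tested.

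Dsc2 was lower by 4.22 ± 0.23 on the log2 scale in Shh wounds (log2 fold change -4.22, SE, adjusted p = 5.9e-08, limma) and Dsg2 had a log2 fold change of -1.82 ± 0.20 (adjusted p = 1.1e-05). No Shh wound library reached the lowest E14.5 library for either gene. Dsc1 had the largest positive value, 2.47 ± 0.22, followed by Dsp with 1.80 ± 0.26 and Pkp1 with 1.80 ± 0.17 on the log2 scale. Dsg3, with 157, 137 and 128 CPM in Shh wounds, against 99.3, 86.3, 110 and 94.6 CPM in E14.5 skin, was higher by 0.52 ± 0.11 (adjusted p = 0.00151). In a fit with all 3 groups of epidermis this call was lost (adjusted p = 0.0695). Dsc3 had a log2 fold change of 0.29 (adjusted p = 0.133), and it passed with TMM at 0.89 (adjusted p = 0.00118). The suprabasal markers were higher in Shh wound epidermis, 6 of 6, at a summed 85175 to 94588 CPM, against 7841 to 12476 CPM in E14.5 epidermis. The immune markers were also higher, 4 of 4, at 341 to 503 CPM in Shh wound epidermis, against 8.14 to 13.5 CPM in E14.5 epidermis. The periderm and skeletal muscle markers were lower, 4 of 4 each, at 0.419 to 1.94 CPM and 0.419 to 1.11 CPM in Shh wound epidermis, against 333 to 408 CPM and 127 to 471 CPM in E14.5 epidermis. The part of these cell types was not tested.

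The make-up of each cadherin family differed between E14.5 skin and the wounds. It was examined with shares within a library, which do not depend on the library total, and with log2 ratios. On the CPM per kb scale, Dsg1a made up 88.3% ± 2.35 of the 3 desmogleins in Shh wounds, 68.5% ± 5.16 in E14.5 skin and 94.2% ± 1.63 in WT wounds (SD, n = 3, 4 and 3). Dsg2 made up 2.12% ± 0.82 in Shh wounds, 16.6% ± 4.02 in E14.5 skin and 1.27% ± 0.78 in WT wounds. Dsg3 made up 9.61% ± 1.61 in Shh wounds, 14.9% ± 1.20 in E14.5 skin and 4.55% ± 1.30 in WT wounds. Each desmoglein share of E14.5 skin thus lay outside the range of both kinds of wound.

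Among the desmocollins the leading gene changed. Dsc1 made up 62.6% ± 7.12 in Shh wounds, 23.9% ± 3.53 in E14.5 skin and 61.9% ± 12.4 in WT wounds. Dsc3 made up 37.2% ± 7.02 in Shh wounds, 63.7% ± 2.96 in E14.5 skin and 37.9% ± 12.3 in WT wounds. The rest was Dsc2, at 0.298% ± 0.139 in Shh wounds, 12.4% ± 2.28 in E14.5 skin and 0.192% ± 0.217 in WT wounds. Of the 2 plakophilins, Pkp3 made up 23.7% ± 1.09 in Shh wounds, 37.9% ± 1.19 in E14.5 skin and 24.8% ± 0.862 in WT wounds. The 4 embryonic libraries lay between 36.4% and 39.2%, above every wound library.

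**Figure D3:**
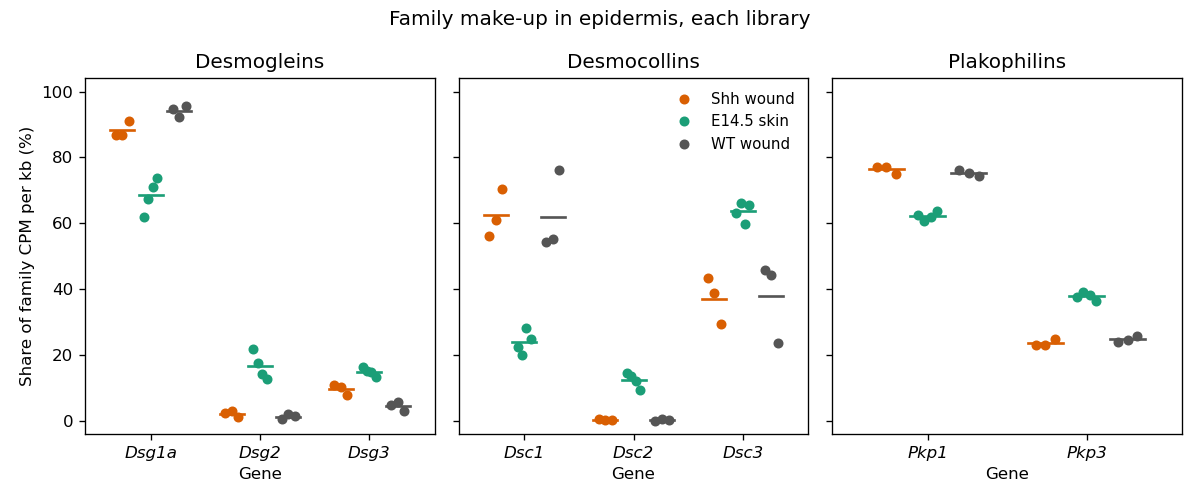
Share of each gene in its family in epidermis, from CPM per kb within a library, for Shh wounds, E14.5 skin and WT wounds; points are libraries and bars are means. Dsc3 leads the desmocollins in E14.5 skin (63.7%) and Dsc1 in both kinds of wound (62.6% and 61.9%).

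For the ratios 1 CPM was added to each gene, so a ratio with a low gene still depends somewhat on the library total. The log2 ratio of Dsg1a to Dsg3 was 1.89 ± 0.22 in E14.5 epidermis and 4.10 ± 0.46 in WT wound epidermis (SD, n = 4 and 3). That of Dsc1 to Dsc3 was -1.52 ± 0.27 in E14.5 epidermis and 0.65 ± 0.81 in WT wound epidermis. These differences of -2.21 and -2.17 each had p = 0.0571 in a two-sided exact permutation test (n = 4 and 3), the smallest value this design can give. Adjusted over the 15 ratio tests the exact permutation p was 0.0857, so no ratio passed 0.05. The other 3 ratios, Dsg2 to Dsg3, Dsc2 to Dsc3 and Pkp3 to Pkp1, were higher in E14.5 epidermis without overlap, by 2.11, 5.69 and 0.89 on the log2 scale, with the same p. WT wound library Con-9097 held 0 CPM of Dsc2, so its Dsc2 to Dsc3 value of -10.5 rests on the added 1 CPM. With each library left out in turn, the difference in Dsc2 to Dsc3 was 4.46 to 6.42. All 5 ratios also separated Shh wounds from E14.5 skin without overlap.

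Between Shh wounds and WT wounds 1 of the 5 ratios did not overlap. Dsg1a to Dsg3 was 2.91 ± 0.29 in Shh wound epidermis and 4.10 ± 0.46 in WT wound epidermis (SD, n = 3 each), a difference of -1.19 on the log2 scale. The exact permutation p was 0.1, the smallest that 3 against 3 libraries can give, and 0.136 after adjustment. The difference stayed between -1.38 and -0.93 when each library was left out in turn. Dsc1 to Dsc3 was 0.66 ± 0.45 in Shh wounds and 0.65 ± 0.81 in WT wounds, and Pkp3 to Pkp1 was -2.16 ± 0.09 in Shh wounds and -2.08 ± 0.07 in WT wounds.

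Related junction genes were counted from lists of named genes. Of the other desmosome and cornified junction genes, 7 were tested in E14.5 against WT wound epidermis, and 1 passed as higher and 4 as lower. Cdsn, which builds the corneodesmosomes of the outermost layers, had 0.383, 0.424, 0 and 0.188 CPM in E14.5 epidermis, against 1426, 1339 and 1708 CPM in WT wound epidermis. The plakin Ppl, a component of the cornified envelope that binds desmosomes, had 915 to 1145 CPM in E14.5 epidermis, against 1923 to 2999 CPM in WT wound epidermis (log2 fold change -1.17). Pkp2, the plakophilin of heart and simple epithelia, passed as higher but reached only 0.979 to 2.48 CPM in E14.5 epidermis, against 0 to 0.136 CPM in WT wound epidermis. Perp, a tetraspan protein of desmosomes, had a log2 fold change of -0.20 and did not pass (adjusted p = 0.307). In Shh against WT wound epidermis 0 of the 7 passed.

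The 9 genes of adherens junctions, the actin-linked partners of desmosomes, included 4 that passed as higher and 2 as lower in E14.5 epidermis. Ctnnb1, β-catenin, had 1365 to 1550 CPM in E14.5 epidermis, against 335 to 372 CPM in WT wound epidermis (log2 fold change 2.06, adjusted p = 2.5e-06, limma). Cdh3, the P-cadherin of basal and placode cells, had 191 to 222 CPM in E14.5 epidermis, against 52.0 to 101 CPM in WT wound epidermis (log2 fold change 1.57). Cdh1, E-cadherin, had 897 to 1052 CPM in E14.5 epidermis and 934 to 963 CPM in WT wound epidermis, with a log2 fold change of 0.03 (adjusted p = 0.764). Pvrl1, a nectin, was lower, with a log2 fold change of -0.74.

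Of the 6 keratins listed, 0 were higher and 4 lower in E14.5 epidermis. Krt1 and Krt10, the pair of the suprabasal layers, had log2 fold changes of -3.36 and -3.12, and Krt6a, a keratin of wounds and follicles, of -6.21. Krt14, the basal keratin, had a log2 fold change of -0.60 (adjusted p = 0.0118). Of the 8 regulators of epidermal adhesion and differentiation, 2 were higher and 5 lower. Klf4, which drives barrier formation, had 74.7 to 127 CPM in E14.5 epidermis, against 591 to 844 CPM in WT wound epidermis. Its log2 fold change was -2.79, while Klf5 was at -1.23 and Grhl1, known in mice to regulate Dsg1, at -0.99. None of the genes of these 3 lists passed between Shh and WT wound epidermis.

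In dermis the desmosomal genes were far less abundant, and epidermis was higher for nearly all of them. Epidermis passed as higher for 10 of 10 genes in Shh wounds, where 33% of all genes passed, 19.6% higher and 13.4% lower. It passed for 10 of 10 in E14.5 skin, where 67.5% passed, 35.6% higher and 31.9% lower. In WT wounds it passed for 8 of 10, where 23.9% passed, 13.4% higher and 10.5% lower. The 2 others there were Dsg2, with a log2 fold change of 1.61 (adjusted p = 0.106), and Dsc2, with 0.76 (adjusted p = 0.672). Without WT wound epidermis library Con-9097, Dsg2 passed (adjusted p = 0.0264). In Shh wounds Dsc2 no longer passed without epidermis library Tg-9101 or Tg-9233 (adjusted p = 0.0663 and 0.0557).

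The dermal mean of a gene was a small percentage of its epidermal mean. For the 10 genes this was 0.774% to 12.5% in Shh wounds, 2.23% to 7.91% in E14.5 skin and 1.37% to 39.3% in WT wounds. For 9 keratinocyte markers outside the 10 genes it was 1.07% to 20.9% in Shh wounds, 1.35% to 13.0% in E14.5 skin and 1.49% to 24.2% in WT wounds. The values above 20% among the 10 genes were those of Dsc2 and Dsg2 in WT wounds, whose epidermal means were 6.43 and 24.9 CPM. Whether the dermal reads came from epidermal cells left on the dermis, from hair follicles or from dermal cells was not tested.

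**Figure D4:**
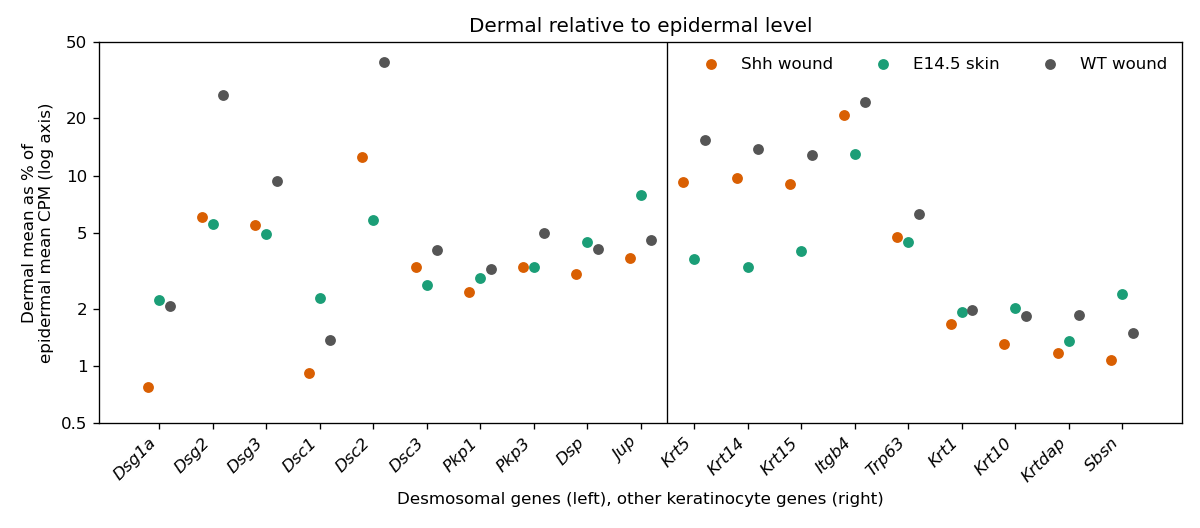
Dermal mean CPM as a percentage of the epidermal mean on a log axis, for the 10 desmosomal genes (left) and 9 other keratinocyte genes (right), in Shh wounds, E14.5 skin and WT wounds. The upper-layer genes Dsg1a and Dsc1 sit low, as do Krt1 and Krt10, and Dsc2 in WT wounds is highest at 39.3%.

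E14.5 dermis library 4 stood apart from libraries 3, 5 and 7. It held 1.82 to 3.94 times as much of the 10 genes as the mean of the others (median 3.37), and 2.13 to 3.91 times as much of the 9 keratinocyte markers (median 3.11). Dsp, for example, had 131, 382, 103 and 83.0 CPM in E14.5 dermis libraries 3, 4, 5 and 7. Every dermal result below that uses E14.5 skin therefore carries a wide spread in that group.

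Between E14.5 and WT wound dermis, Dsc2 passed as higher and Dsg1a, Dsc1, Pkp1, Pkp3 and Dsp as lower, 6 of 10 genes. The background was 56% of 19732 genes, 49.4% higher and 6.63% lower. Dsp had a log2 fold change of -2.28 ± 0.51 (SE, adjusted p = 0.00569, limma) and Pkp1 of -2.10 ± 0.48 (adjusted p = 0.00605). Dsc2 had 9.34, 19.7, 7.12 and 7.29 CPM in E14.5 dermis, against 5.72, 1.87 and 0 CPM in WT wound dermis (log2 fold change 2.03, adjusted p = 0.0273). The groups did not overlap, but the call was lost without WT wound library Con-9098 (adjusted p = 0.058) and without E14.5 library 3 or 4 (0.0584 and 0.0776). It was also lost with TMM (0.116), with edgeR (0.164) and with DESeq2 (0.11). Dsg2 had 4.59, 15.8, 4.70 and 3.19 CPM in E14.5 dermis, against 7.87, 3.46 and 8.53 CPM in WT wound dermis, and its log2 fold change was -0.07 (adjusted p = 0.92).

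The other dermal calls in this comparison varied in firmness. Pkp3 (log2 fold change -1.52, adjusted p = 0.0354) lost its call without WT wound library Con-9097 or Con-9098 (adjusted p = 0.118 and 0.0611) or E14.5 library 3, 5 or 7 (0.0741, 0.0896 and 0.086). Dsc1 (log2 fold change -1.70) lost it without WT wound library Con-9098 (adjusted p = 0.0536), where 3 of the 6 calls were left. Without E14.5 library 4, Dsc3 and Jup passed as lower as well (adjusted p = 0.00621 and 0.00753), and without WT wound library Con-9229 Dsc3 did (0.0366). Dsg1a lost its call in a fit with all 3 groups of dermis (adjusted p = 0.104). The median shift of genes that averaged 50 CPM or more was 0.91 here. With TMM, Dsc3 (log2 fold change -1.91, adjusted p = 0.00929) and Jup (-1.37, adjusted p = 0.00203) passed as lower, and both also passed with edgeR and DESeq2. The 6 suprabasal markers summed to 96.2 to 384 CPM in E14.5 dermis, against 1182 to 2188 CPM in WT wound dermis, and their part in these differences was not tested.

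Between Shh and WT wound dermis no gene passed, member or other (0 of 19430 with limma, background 0%). That includes Shh, Gli1 and Ptch1, at a median log2 fold change of 1.41. At an unadjusted p under 0.05 there were 546 genes, of which 1 was a member, and edgeR called 0 genes (0%) and DESeq2 called 4 (0.0337%), none of them a member. Dsg1a was that member, with 10.5, 14.2 and 0 CPM in Shh wound dermis, against 26.8, 29.6 and 22.0 CPM in WT wound dermis (log2 fold change -2.27, adjusted p = 0.958). The Shh wound library without a read was Tg-9233, where 3 reads are 0.765 CPM, and without it the log2 fold change was -1.03. Tg-9233 detected only 12044 genes, so a bound of 3 reads may be too low. Dsg1a, Dsg2 and Jup were lower without overlap, 3 of 10 genes, where 1.73% of all genes were. For Dsg2 the values were 1.64, 3.37 and 1.53 CPM in Shh wound dermis, against 7.87, 3.46 and 8.53 CPM in WT wound dermis. Its separation rests on less than 1 read, as 1 read is 0.267 CPM in WT wound library Con-9098, which held 3.46 CPM (13 reads). Jup had 94.6, 113 and 111 CPM in Shh wound dermis, against 147, 128 and 129 CPM in WT wound dermis. Dsp had 374, 388 and 494 CPM in Shh wound dermis, against 1080, 727 and 440 CPM in WT wound dermis, and overlapped. The 6 suprabasal markers summed to 1092 to 1362 CPM in Shh wound dermis and 1182 to 2188 CPM in WT wound dermis, and their part was not tested.

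Between Shh wound and E14.5 dermis, Dsc1, Pkp1 and Dsp passed as higher in Shh wounds and Dsc2 as lower, 4 of 10 genes. The background was 50.6% of 19734 genes, 8.08% higher and 42.5% lower. Dsc2 had 0.819, 0.25 and 2.55 CPM in Shh wound dermis, against 9.34, 19.7, 7.12 and 7.29 CPM in E14.5 dermis (log2 fold change -2.45, adjusted p = 0.00412). This was the only 1 of the 4 calls that held when each library was left out in turn. Without Shh wound library Tg-9231, or E14.5 library 3, 5 or 7, it was the 1 call left, with adjusted p for Pkp1 of 0.05 to 0.0739 and for Dsp of 0.0553 to 0.0658. Dsc1 also lost its call without Shh wound library Tg-9101 or Tg-9233 (0.0723 and 0.0678) and in a fit with all 3 groups of dermis (0.0531). Jup passed as higher with TMM (log2 fold change 0.87, adjusted p = 0.019), edgeR and DESeq2, and Pkp3 with DESeq2 (0.0461) and without E14.5 library 4 (0.0291). The suprabasal markers were higher in Shh wound dermis, 5 of 6, at a summed 1092 to 1362 CPM, against 96.2 to 384 CPM in E14.5 dermis. The immune markers were higher, 4 of 4, and the skeletal muscle markers lower, 4 of 4. The part of these cell types was not tested.

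**Figure D5:**
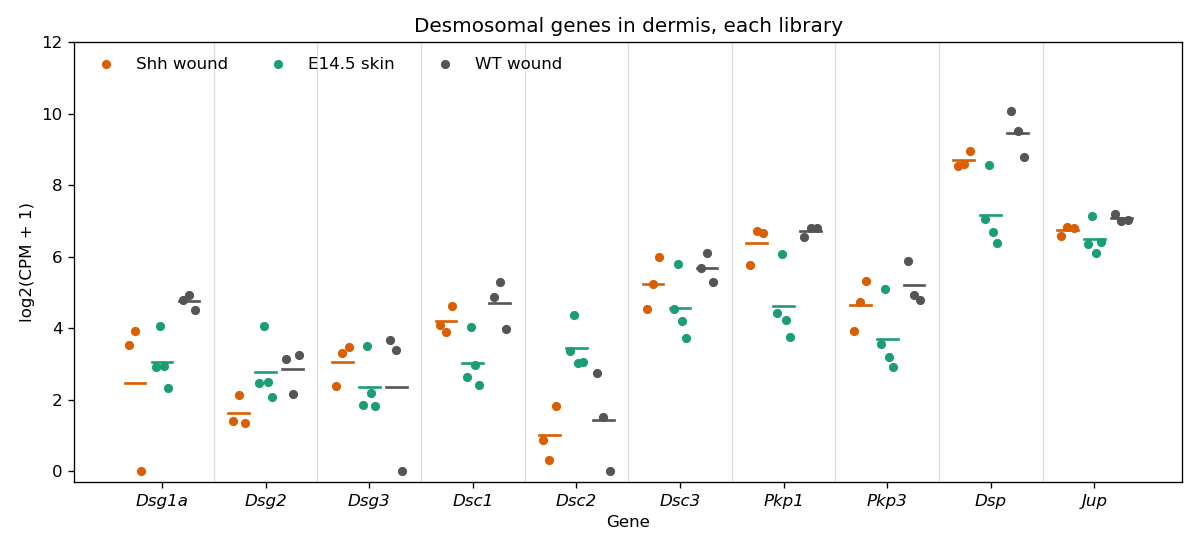
Level of the 10 desmosomal genes in dermis as log2(CPM + 1); points are libraries and bars are means, for Shh wounds, E14.5 skin and WT wounds. In each column of E14.5 skin 1 point, library 4, stands above the other 3, with Dsp at 382 CPM against 83.0 to 131 CPM.

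Whether the difference between E14.5 skin and WT wounds was itself unlike in epidermis and dermis was tested with an interaction term. It passed for Dsg2 and Dsc2, 2 of 10 genes, both more positive in epidermis, where 21.2% of 19806 genes passed, 8.46% as more positive and 12.7% as more negative. For Dsg2 the difference was 2.52 in epidermis and -0.07 in dermis, and the interaction 2.59 on the log2 scale (adjusted p = 0.0175, limma). For Dsc2 it was 5.37 in epidermis and 2.03 in dermis, and the interaction 3.34 (adjusted p = 0.037). The call for Dsg2 held when each of the 14 libraries was left out in turn (adjusted p of 0.00392 to 0.0391). That for Dsc2 was lost in 10 of these 14 fits, with all 4 E14.5 epidermis libraries, E14.5 dermis 3, 5 and 7, WT wound epidermis Con-9097 and WT wound dermis Con-9097 and Con-9098 (adjusted p of 0.0575 to 0.089). Without E14.5 dermis library 4, 5 genes passed, with Dsc3, Pkp1 and Pkp3 added (adjusted p of 0.035, 0.0213 and 0.0297). Without E14.5 dermis library 5 Jup passed as more negative in epidermis (0.0445).

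The same test between Shh and WT wounds gave no call among 19722 genes with limma, a background of 0%. At an unadjusted p under 0.05 there were 678 genes, of which 1 was a member. That member was Dsg2, with an interaction of 1.93 on the log2 scale and a 95% confidence interval of 0.20 to 3.67 (adjusted p = 0.952, limma).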

How the data were processed

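The members, lists and tests were chosen with earlier results of these data known. RNA was isolated after EDTA separation of epidermis and dermis, and stranded ribosomal RNA-depleted libraries were sequenced as paired ends of 50 bases. Per the labels, Bowtie, SAMtools and HTSeq were used with build NCBIM37, with versions not given in the sources used here. The authors deposited CPM for each gene and library. Each library sums to 1000000 CPM, and 100% of values were whole multiples of 1 read (0.0533 to 0.71 CPM) within a tolerance of 0.01, so reads could be recovered. The authors' own fold changes and p-values in the same tables were not used, nor was 1 column that belongs to no sample.

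Genes with at least 1 read were tested on log2(CPM + 1) by limma 3.58.1 under R 4.3.3, so that changes of low genes are understated, with a trend of spread on level and only the groups compared. P-values were adjusted by Benjamini-Hochberg over all genes tested and called at 0.05. The procedure was tested on simulated data. Ratios were taken from CPM + 1 and tested with exact permutation (scipy 1.17.1). Alternatives were a pseudocount of 0.5, a mean of at least 1 CPM, TMM, no trend, all 3 groups of a tissue, the recovered reads in edgeR 4.0.16 and in DESeq2 1.42.0, a replicate block, and leaving out libraries. Named are all 10 members and, of each list, the up to 4 genes with the smallest adjusted p in E14.5 against WT wound epidermis. Shh, Gli1 and Ptch1 served as label checks. Perp, Cdh1 and the single basal keratinocyte markers were added after seeing the data. Dsg1c was not analysed here. Exon lengths are from GENCODE M21.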

Additional observations from a re-analysis of the deposited data

Results flagged for a closer look

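In E14.5 dermis, library 4 was far from the other 3 by Dixon's test for 5 genes and for their sum. It held 15.8 CPM of Dsg2, 10.4 CPM of Dsg3, 66.5 CPM of Pkp1, 33.1 CPM of Pkp3 and 382 CPM of Dsp, and 755 CPM of the 10 genes together. In all, 27 groups of 4 values were examined and 6 were marked, where chance marks about 1 in 20. The 6 marks come from 1 library and are not independent. The 9 keratinocyte markers were 2.13 to 3.91 times higher in that library too, and their part was not tested.

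The difference between E14.5 skin and WT wounds was larger in epidermis than in dermis for Dsg2, by 2.59 on the log2 scale (adjusted p = 0.0175, limma), and for Dsc2, by 3.34 (adjusted p = 0.037).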

How the results depend on the processing

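The tissue difference of the E14.5 effect was called for 1 gene instead of 2 with a pseudocount of 0.5, with TMM and with the replicate block, Dsc2 being lost (adjusted p = 0.0997, 0.0589 and 0.0787, limma). Epidermal and dermal libraries share numbers, but the labels do not say whether a number marks the same animal. Same-numbered deviations correlated at -0.0234 to 0.414 and differently numbered ones at -0.31 to 0.22. These ranges overlap and do not settle whether the libraries are paired. The main tests did not use the numbers as pairs, so a pairing would be ignored there. The replicate block changed no other count. With 1 library left out, the calls among the 10 genes ranged from 1 to 5 for that tissue difference, 3 to 7 for E14.5 against WT wound dermis and 1 to 5 for Shh wound against E14.5 dermis. Of 710 member values under the other alternatives 663 kept direction and call.

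Directions turned as follows, on the log2 scale. Dsg3 in E14.5 against WT wound epidermis was -0.11 with TMM, -0.17 with edgeR, -0.20 with DESeq2 and -0.040 without WT wound libraries Con-9097 and Con-9229, which leaves Con-9098 alone. Pkp3 in Shh against WT wound epidermis was -0.021 with TMM, -0.020 with edgeR and -0.067 with DESeq2. Without those 2 libraries, in the same comparison, Dsg2 was -0.26, Dsc1 0.13, Dsc2 -0.60 and Jup 0.22. In dermis, Dsg3 was 0.20 in E14.5 against WT wounds with a pseudocount of 0.5, and -0.69 in Shh against WT wounds without WT wound Con-9229 and Shh wound Tg-9233. Dsg1a in Shh wound against E14.5 dermis was 0.66 with edgeR and 0.58 with DESeq2. The interaction of Dsg1a with stage was 0.023 with TMM and that of Dsg3 with genotype -0.037 with a pseudocount of 0.5. The cause was not tested.

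Leaving out 1 library at a time also turned directions, over these ranges. In Shh against WT wound epidermis these were -0.31 to 0.10 for Dsc3, -0.15 to 0.14 for Jup, -0.065 to 0.18 for Pkp3, -0.20 to 0.17 for Dsc1 and -0.0039 to 0.24 for Pkp1, and, for the ratios, -0.24 to 0.48 (Dsc1 to Dsc3), -0.90 to 0.18 (Dsg2 to Dsg3) and -0.045 to 1.91 (Dsc2 to Dsc3). In E14.5 against WT wound dermis they were -0.50 to 0.17 for Dsg2 and -1.19 to 0.65 for Dsg3. In Shh against WT wound dermis they were -1.13 to 0.24 for Dsc2 and -0.48 to 1.36 for Dsg3. Dsg1a in Shh wound against E14.5 dermis gave -1.30 to 0.67, and Dsc2 in epidermis against dermis of WT wounds -0.11 to 1.85. The interaction with stage gave -0.23 to 1.61 for Dsg3, -0.24 to 0.54 for Dsp and -0.35 to 0.23 for Dsg1a, and that with genotype -0.42 to 1.42 for Dsg3.

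Depth limits Dsc2 and Dsg2 in WT wound libraries, where 1 read is up to 0.71 CPM. So does the low number of genes detected in epidermis Con-9097 and Con-9229 and dermis Con-9229.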
